A study of Mus musculus
Rattus norvegicus and Rattus norvegicus and Mus musculus with 18 samples.

Results

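The comparison set 1 library from a pellet of 4T1 cells, a mouse mammary carcinoma line, against 5 libraries from the living rim of tumors grown from that line in rats. A mouse gene was taken as different when its pellet value lay at least 4-fold above the highest or at least 4-fold below the lowest of the 5 rims. Of 12939 mouse genes compared, 408 lay above (3.15%) and 880 lay below (6.80%), so 1288 genes are described. Of 11130 protein-coding genes compared, 46 lay above (0.413%) and 477 lay below (4.29%). The pellet is a single library, so there is no replicate check on its side and no test was made. The spread given is that of the rims.

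The study transplanted 4T1 cells into mammary fat pads of SRG rats, an immunodeficient strain, and read tumor and host apart by species: mouse reads stand for tumor cells and rat reads for the host. Of its 18 libraries, 6 are used for the comparison and 2 libraries of normal rat mammary gland without a transplant serve to mark mouse genes that rat RNA can reach. The rims came from 5 animals, Rat3867, Rat3869, Rat3875, Rat3876 and Rat3877, and were taken on day 27 by cutting the tumor and separating its non-necrotic part from the necrotic core. The deposited table marks tumor regions only as in and out; out was read as the rim and in as the core of the same rat. Pellet and rims carry the labels wildtype and no treatment, and all libraries were made from polyA RNA. The labels give no culture condition, passage or date for the pellet and no sequencing batch for any library, so the library and the condition cannot be told apart. The labels used here give neither sex nor age of the rats.

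A carcinoma cell in a dish lives on plastic in rich medium, with no host cells, no blood supply and no matrix other than its own. In a tumor the same cell meets stroma, oxygen gradients, cytokines of the host and contact with matrix, and transcripts for secreted proteins, receptors and antigen presentation are among those known to respond to such signals. SRG rats lack most lymphocytes, while macrophages, neutrophils, fibroblasts and vessels of the host remain.

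The pellet held 29366199 reads over the 17672 genes shared by both deposited tables, and the rims held 17579200 to 21239663 mouse reads. Pellet values below are CPM, counts scaled to the same library total, over the shared genes. Rim values are the deposited normalized signal, whose sums per library were 979652 to 1011798. The 2 tables were normalized separately, so each level set across them carries that difference in scale. Rat reads made up 0.718% of assigned reads in the pellet. Across compared genes the median log2 difference of the pellet from the mean of the rims was -0.17, with 4241 genes above all rims by any fold (32.8%), 5895 below all rims by any fold (45.6%) and 2803 inside the rim range. The rims themselves spanned a median log2 range of 0.55 per gene. The distance between pellet and nearest rim exceeded the gene's whole range among rims for 373 of the 408 genes above and 861 of the 880 below. Since the rule asks for a log2 distance of at least 2, this largely follows from how the genes were chosen.

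The pellet carried the markers of an epithelial carcinoma cell. Krt8, a keratin of simple epithelium, stood at 1626 CPM in the pellet and 1533 to 2059 in the rims. Its partner Krt18 stood at 1364 CPM and 1526 to 1947. The adhesion protein Cdh1 was at 208 CPM, inside the rim range of 125 to 377, while Epcam was at 152 CPM, below the rims at 235 to 752. Vim, the intermediate filament of mesenchymal cells, was abundant in the pellet (3782 CPM) and the rims (3623 to 6917). The most abundant transcripts of the pellet were Eef1a1, a translation elongation factor (19089 CPM), Lgals1, a galectin (7747), the ribosomal Rplp0 (4965), the chaperone Hsp90ab1 (4469) and S100a6 (4129.5).

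**Figure D1:**
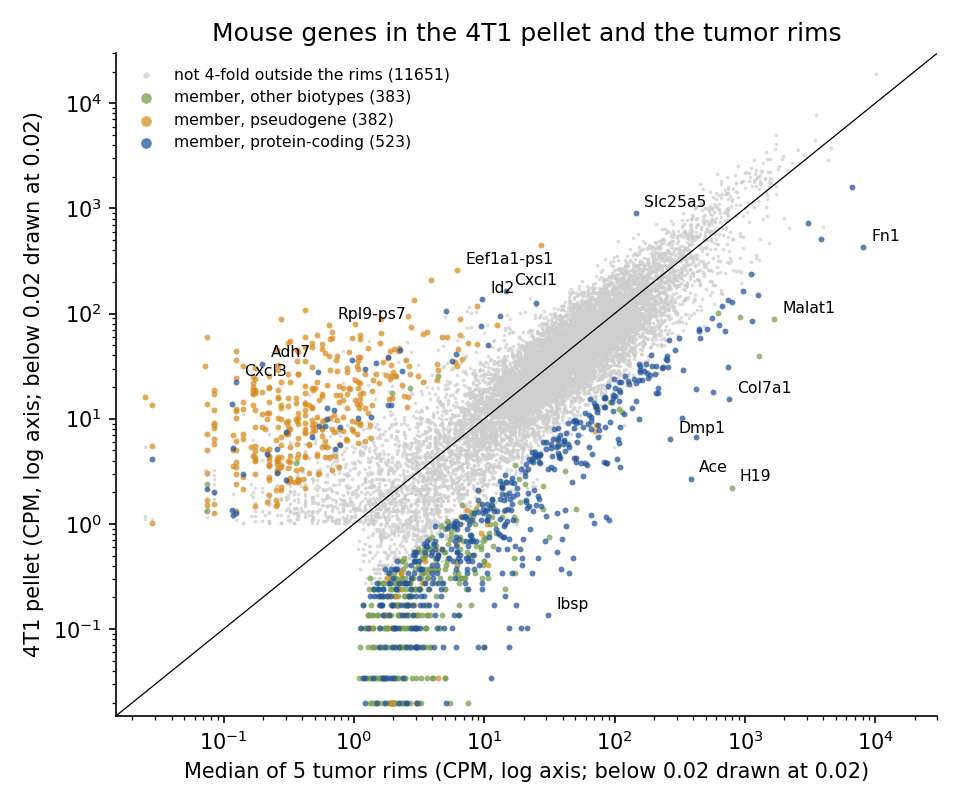
Each point is 1 of 12939 compared mouse genes, with the median of the 5 rims on the x axis and the pellet on the y axis, both in CPM on log scales (values below 0.02 are drawn at 0.02). Genes 4-fold or more outside all 5 rims are coloured by class; most of the 408 genes above are pseudogenes at low rim levels, while the 880 below include 477 protein-coding genes.

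The classes of gene differed in direction. Pseudogenes were 355 of the 408 genes above (87.0%) and 6.92% of the genes compared. Below the rims stood 129 of 194 TEC entries (loci that the annotation lists as still in need of experimental evidence), 20 of 26 sense intronic RNAs, 101 of 232 antisense RNAs and 57 of 212 lincRNAs, next to 477 of 11130 protein-coding genes. Of the 1288 genes, 31.7% were above. That share was 41.9% when libraries were scaled by TMM, 43.3% with median-of-ratios factors, and 42.0% when genes whose exons overlap another gene were left out. It was 8.73% without the genes that drew mouse reads in the rat gland, 22.8% without a filter on low values and 24.0% with the trend over length and GC content removed. Low rim values make that gland mark easier to meet, so the 8.73% follows in part from how genes above were chosen. The median log2 difference of all compared genes was 0.13 with TMM and 0.16 with median-of-ratios factors.

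The protein-coding genes above the rims were few, and those of at least 20 CPM in the pellet were led by Adh7, a retinol-oxidizing enzyme, and Cxcl3, a neutrophil-attracting chemokine. Of the 46, 19 had at least 20 CPM in the pellet and 15 had at least 1 rim under 3 reads. The 7 CXC chemokines compared had a median log2 difference of 2.79 against -0.17 for all genes compared. Of the 7, 3 lay 4-fold above the rims, 6 lay above at any fold, and Cx3cl1, counted with them, lay below. Among all compared genes 3.15% lay 4-fold above and 32.8% above at any fold.

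Cxcl1, Cxcl3 and Cxcl5 are ligands of the neutrophil receptor Cxcr2 and sit in 1 cluster on chromosome 5 (GRCm38). Cxcl1 (5:90891241-90893115) stood at 163 CPM in the pellet against 9.65, 16.7, 14.3, 15.9 and 14.7 in the rims of Rat3867, Rat3869, Rat3875, Rat3876 and Rat3877, the order used for all lists of 5 rim values. The rims lay close together at 14.3 ± 2.76 (SD, n = 5), and the pellet was 9.72-fold above the highest. Cxcl5 (5:90759360-90761624) stood at 38.4 CPM against 0.973, 3.76, 2.17, 1.10 and 1.82, which put it 10.2-fold above the highest rim. Cxcl3 (5:90786103-90789600) stood at 22.1 CPM against 0.0748, 0.485, 0.0714, 0.255 and 0.125, a distance of 45.6-fold. In both genes the rim of Rat3869 was the highest; without it the log2 distance to the nearest rim was 6.44 in place of 5.51 for Cxcl3 and 4.15 in place of 3.35 for Cxcl5. Mouse Cxcl3 and Cxcl5 also drew reads in the rat gland libraries above 10% of their mean rim level, so part of their low rim signal may be rat, and the share was not tested. The same 3 genes stood at 14.4 to 36.8, 3.66 to 10.3 and 0.0768 to 0.805 CPM in the 5 tumor cores. Cxcl10, an interferon-induced ligand of another receptor, was at 4.97 CPM against 0.162 to 1.82.

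Adh7, an alcohol dehydrogenase that oxidizes retinol (3:138217760-138233382), had the largest distance among protein-coding genes of at least 20 CPM in the pellet. It stood at 33.5 CPM against 0.0748, 0.439, 0.0714, 0.198 and 0.424 in the rims, 76.3-fold above the highest. Its levels in the rims correspond to a handful of reads per library. Cyp1b1, a cytochrome P450 that also acts on retinoids and estrogens, was at 13.6 CPM in the pellet and 0.0748 to 2.61 in the rims, 5.22-fold above the highest. Klk10, a secreted serine protease of the kallikrein family, stood at 33.7 CPM against 0.923, 1.22, 2.40, 1.73 and 1.47, 14.0-fold above. Plscr2, a phospholipid scramblase, stood at 106 CPM against 2.32, 7.32, 5.12, 6.26 and 3.02, 14.5-fold above. The 5 cores held Plscr2 at 22.6 to 29.2 CPM and the 5 lungs at 15.1 to 36.2, values between those of the rims and the pellet.

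Id2, an inhibitor of basic helix-loop-helix factors, stood at 137 CPM against 4.46, 9.58, 14.3, 16.8 and 7.36 in the rims, 8.18-fold above the highest. Rat reads at the gland's rate would account for 13.3% of its rim reads. Its relatives Id1 (81.6 CPM against 19.8 to 41.0) and Id3 (291 against 64.1 to 122) were above every rim by 1.99-fold and 2.38-fold, short of 4-fold. Gadd45b, a stress sensor upstream of p38 and JNK signaling, stood at 94.1 CPM against 10.2, 14.9, 14.7, 13.1 and 12.8, 6.30-fold above. Gadd45g was at 50.5 CPM against 6.77 to 12.4, 4.08-fold above. The third member of that family went the other way: Gadd45a stood at 27.1 CPM against 304, 243, 100.3, 215 and 87.9, 3.24-fold below the lowest rim.

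Further protein-coding genes above the rims had diverse roles. Dlk2, a membrane relative of the Notch ligands, stood at 45.1 CPM against 1.39 to 6.07, 7.43-fold above the highest rim, and its log2 distance of 2.89 became 4.22 without Rat3875. Neurl3, a ubiquitin ligase induced by inflammation, was at 75.7 CPM against 7.11 to 13.6 (5.57-fold), and Lurap1l at 28.4 against 1.22 to 4.81 (5.89-fold). Prl2c3, a proliferin of the prolactin family, was at 36.4 CPM against 0.31 to 6.86 (5.30-fold). Proliferin genes are near-identical copies of each other, so how reads fell among them is uncertain. The most abundant of the 46 was Slc25a5, which exchanges ADP and ATP across the inner mitochondrial membrane: it stood at 904 CPM against 124, 146, 207, 143 and 181, 4.38-fold above, with all 5 rims in a narrow band. Dnph1, a nucleotide hydrolase, stood at 126 CPM against 31.5 in the highest rim and just met the threshold. With the trend over length and GC content removed, Slc25a5 (log2 distance 1.63), Prl2c3 (1.61), Dnph1 (1.52) and Gadd45g (1.74) were short of 4-fold.

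**Figure D2:**
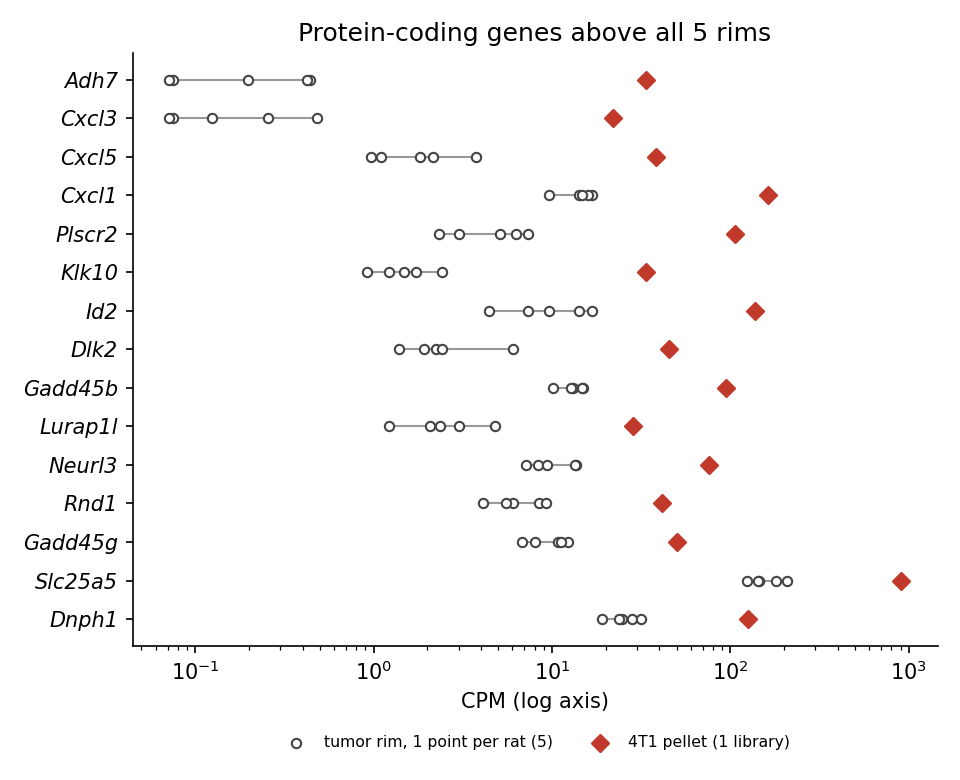
Values of 15 protein-coding genes 4-fold or more above all 5 rims, in CPM on a log axis; open circles are the 5 rims and the red diamond is the pellet. In each gene the diamond lies to the right of every circle, from 4.00-fold for Dnph1 to 76.3-fold for Adh7.

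Pseudogenes gave most of the genes above the rims. A processed pseudogene is a copy of a spliced transcript pasted back into the genome, and many copies differ from the parent mRNA at a few bases, so short reads of the parent can be placed on the copy or the reverse. Of 775 processed pseudogenes compared, 340 were above. The 355 pseudogenes above had a median of 12.6 CPM in the pellet and 0.425 CPM as the median of rim medians. Each of the 355 matched a protein-coding transcript by sequence, with a median identity of 98.1%, and 139 of the matches were ribosomal protein genes. The matched coding genes were not displaced to the same degree: their median log2 difference was 0.84, with 2 above by 4-fold, 1 below and 352 neither. The 540 other pseudogenes compared stood at a median of 4.63 CPM in the pellet and 1.69 in the rims, and the 522 of them with a match had a median identity of 98.8%.

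The 3 pairs of pseudogene and coding gene below show how little sequence separates a copy from its parent. Each pair is a 90-base window of the coding sequence, 5′ to 3′ on the coding strand, read from the GENCODE M21 transcripts of GRCm38; bases that differ within the pair are in capitals. Positions count from 1 at the A of the coding gene's start codon. Rpl9-ps7 (2:70458982-70459560, plus strand) differs from the coding sequence of Rpl9 (5:65388364-65391444, minus strand) at 3 of 579 bases, A51C, C203T and C404T, and the window covers positions 6 to 95.
Rpl9: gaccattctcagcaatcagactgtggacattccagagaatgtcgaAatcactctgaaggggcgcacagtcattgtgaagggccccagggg
Rpl9-ps7: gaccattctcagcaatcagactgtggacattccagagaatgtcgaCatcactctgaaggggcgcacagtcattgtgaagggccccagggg
Rpl28-ps3 (4:126069867-126070259, minus strand) differs from Rpl28 (7:4792874-4795066, plus strand) at 3 of 393 bases, C162G, G252A and C307T, and the window covers positions 235 to 324.
Rpl28: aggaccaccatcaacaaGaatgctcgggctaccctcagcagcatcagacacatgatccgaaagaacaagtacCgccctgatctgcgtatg
Rpl28-ps3: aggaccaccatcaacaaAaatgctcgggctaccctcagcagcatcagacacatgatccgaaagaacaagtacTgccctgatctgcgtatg
Rpl30-ps1 (6:38376807-38377154, plus strand) differs from Rpl30 (15:34440505-34443640, minus strand) at 3 of 348 bases, G39A, G96A and C173T, and the window covers positions 23 to 112.
Rpl30: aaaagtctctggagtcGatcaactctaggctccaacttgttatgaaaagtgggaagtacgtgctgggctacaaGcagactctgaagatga
Rpl30-ps1: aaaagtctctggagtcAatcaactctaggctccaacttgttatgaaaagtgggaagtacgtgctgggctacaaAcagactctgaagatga

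The longest runs without a difference were 200, 140 and 175 bases in these 3 pairs. Rpl9-ps7 stood at 77.1 CPM in the pellet against 0.374, 1.18, 0.643, 1.10 and 0.524 in the rims, 65.5-fold above the highest, while Rpl9 stood at 1992 CPM against 705 to 797. Rpl28-ps3 stood at 57.6 CPM against 0.474, 2.24, 0.595, 0.652 and 0.674, 25.7-fold above, while Rpl28 stood at 979.7 CPM against 627 to 823. Rpl30-ps1 stood at 67.5 CPM against 0.324, 2.98, 0.738, 0.538 and 0.674, 22.6-fold above, while Rpl30 stood at 199 CPM against 128 to 189.7. So in the pellet each copy held a few percent or more of its parent's level, and in the rims it stayed under 3 CPM, with Rat3869 the highest rim in all 3 copies. Eef1a1-ps1 was the most abundant, at 257 CPM against 5.76, 11.8, 6.21, 6.20 and 6.26, 21.8-fold above, next to Eef1a1 at 19089 CPM against 8785 to 10747.

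Rat3869 stood apart in pseudogenes as a class. Pseudogenes took 1.16% of the mouse reads of its rim, 0.637% to 0.743% in the other 4 rims and 2.31% in the pellet. Without Rat3869 the genes above numbered 583, of which 513 were pseudogenes and 61 protein-coding. A further 531 genes at 1 CPM or more in the pellet are absent from the table of tumor values and could not be compared; 496 of these are pseudogenes. Of all 408 genes above, 326 drew mouse reads in the rat gland libraries above 10% of their mean rim level, and 144 had at least 1 rim under 3 reads. Of all 12939 genes compared, 12193 did not carry this gland mark. The mark is set against the rim level, and many genes above were low in the rims, so a few gland reads sufficed. The large marked share therefore follows in part from how these genes were chosen. No source used here states whether reads matching several places were counted alike in the pellet and tumor tables, so a difference in counting and a difference in transcription cannot be told apart for pseudogenes.

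The genes below the rims were the larger group. Of the 534 list genes compared, 45 lay 4-fold below, against 6.80% of all compared genes and 4.29% of protein-coding genes. Nearly all list genes are protein-coding (533 were compared over protein-coding genes alone). Of the 477 protein-coding genes, 169 had at least 20 CPM in every rim. Of all 880 genes below, 128 had under 3 reads in the pellet and 39 had none, and 23 drew gland reads above 10% of their mean rim level. In bulk libraries fewer cells with a transcript and less of it per cell cannot be told apart.

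Ibsp and Dmp1 belong to the SIBLING family of acidic matrix glycoproteins that bind mineral and integrins, and lie beside Spp1 on chromosome 5. Ibsp (5:104299171-104311469), bone sialoprotein, had 4 reads or 0.136 CPM in the pellet against 40.6, 20.4, 21.1, 68.4 and 30.7 CPM in the rims. Every rim was at least 149.7-fold above the pellet, and the rims averaged 36.2 ± 19.8 (SD, n = 5). That ratio rests on 4 pellet reads, so its counting error is wide. Dmp1 (5:104202613-104214102), dentin matrix protein, stood at 6.44 CPM against 285, 265, 288, 226 and 227, 35.2-fold below the lowest. Spp1 (5:104435118-104441050), osteopontin, stood at 669 CPM against 4023, 3964, 2254, 4399.6 and 2545, 3.37-fold below and so outside the threshold. In the cores Ibsp was at 4.42 to 18.9 CPM and Dmp1 at 400.4 to 626. Mgp, an inhibitor of calcification, was at 3.81 CPM in the pellet against 60.5 to 185 in the rims (15.8-fold), and Enpp1, which makes the mineral inhibitor pyrophosphate, at 1.09 against 23.8 to 106 (21.8-fold).

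Among imprinted genes, H19 stood farthest out. H19 (7:142575529-142578143), a maternally expressed noncoding RNA of fetal growth, was at 2.21 CPM in the pellet against 701, 1029.6, 245, 1776 and 789.6 in the rims. The lowest rim, Rat3875, was 111-fold above the pellet, and without it the log2 distance of -6.79 became -8.31. Of the 6 imprinted growth genes compared, 4 lay 4-fold below the rims (6.80% of all compared genes did) and the median log2 difference was -3.20. Igf2r, the receptor that clears IGF2, was at 67.6 CPM against 812, 535, 499, 817 and 709, 7.38-fold below. Nnat was at 0.477 CPM against 6.36 to 8.74 (13.3-fold) but is among the genes that drew gland reads. Kcnq1ot1 (7:143203458-143296549), the noncoding RNA that silences its imprinted domain, was not in the list; it stood at 1.40 CPM against 63.5, 57.3, 45.2, 50.2 and 40.6, 29.1-fold below. It lies antisense to Kcnq1, and no source used here states whether reads were counted by strand.

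Other long noncoding RNAs were low in the pellet too. Malat1 (19:5795690-5802672), a nuclear-retained RNA of speckles, stood at 88.3 CPM against 1635, 1929, 1270.3, 1881 and 1679, 14.4-fold below the lowest rim. Neat1 (19:5824708-5845478), the scaffold of paraspeckles, stood at 91.8 CPM against 798, 914, 1148, 736 and 1124, 8.02-fold below. Mir100hg (9:41327077-41716994), a microRNA host transcript, stood at 39.1 CPM against 1361, 1283, 1317, 863 and 873, 22.1-fold below. All 3 were abundant in every rim, so counting error is small on both sides. With the trend over length and GC content removed, the log2 distance of Neat1 was -1.86, under 4-fold.

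Cell-surface and membrane proteins included several of the largest distances. Ace (11:105967945-105989964), the angiotensin-converting peptidase, stood at 2.69 CPM in the pellet against 616, 384, 286, 583 and 286, 106-fold below the lowest rim. It was at 243 to 565 CPM in the cores and 233 to 660.2 in the lungs. Ly6e (15:74955051-74959905), a GPI-anchored protein induced by interferon, had 10 reads or 0.341 CPM against 70.7, 44.3, 36.3, 53.5 and 44.6, 107-fold below. Ly6a, the Sca-1 antigen, was at 1.09 CPM against 4.60 to 18.9 (4.22-fold), and Ly6c1 at 0.238 against 1.55 to 5.86 (6.49-fold). Lrp1, an endocytic receptor for proteases and matrix, stood at 30.7 CPM against 809, 582, 738, 1099.8 and 741, 18.9-fold below. Gpr153, an orphan receptor, was at 1.02 CPM against 42.4 to 81.4 (41.5-fold). Lsp1, an actin-binding protein of leukocytes, was at 1.16 CPM against 57.0 to 159 (49.3-fold). Papln, a secreted papilin-like matrix protein, was at 0.477 against 32.7 to 77.8 (68.6-fold).

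Extracellular matrix genes lay below the rims as a group. Of 16 collagens compared, 5 were 4-fold below, 13 were below at any fold and none was above every rim. The median log2 difference was -1.97. Over all compared genes 45.6% lay below every rim at any fold. Col7a1 (9:108953586-108984875), the anchoring fibril collagen beneath epithelia, stood at 15.5 CPM against 874, 750.3, 820.4, 652 and 597, 38.6-fold below, with rims at 739 ± 115 (SD, n = 5). Of 12 matricellular and adhesive glycoproteins, 4 were 4-fold below and 11 were below at any fold, with a median of -2.29. Fn1 (1:71585520-71653200), fibronectin, stood at 428 CPM against 12049.6, 8338, 6476, 8009 and 4784, 11.2-fold below the lowest. Tgfbi, a secreted integrin ligand, was at 1.40 CPM against 8.91 to 15.5 (6.38-fold).

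Some matrix genes can take rat reads, because host fibroblasts express them strongly. Col5a2, a fibrillar collagen, had 3 reads in the pellet against rims of 12.5 to 23.5 CPM; the ratio of the lowest rim to the pellet was 123, with an exact 95% counting interval of 42.0 to 596. At the gland's rate, rat reads would predict 123% of the Col5a2 reads in the rims, 77.7% of those of Tnc (14.8 CPM against 60.3 to 229) and 50.9% of those of Col6a2 (0.988 against 6.17 to 14.8). For Fn1 the predicted share was 3.15% and for Col7a1 4.93%. After subtracting the predicted reads, 13 collagens and 11 glycoproteins could still be compared, of which 2 and 3 were 4-fold below. Below at any fold were 9 collagens and 7 glycoproteins, and 1 of each lay above. The medians were then -1.82 and -1.17. Col5a2 could not be compared, Tnc lay inside the rim range, and Col6a2 had a log2 distance of -1.56.

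Of 15 matrix proteases and inhibitors, 2 lay 4-fold below, 9 lay below at any fold (45.6% of all compared genes did) and 2 lay above at any fold. Mmp9 (2:164940780-164955850), a gelatinase, stood at 10.1 CPM against 686, 642, 328, 264 and 106, 10.6-fold below the lowest. The rims spread widely for this gene: Rat3867 was several times Rat3877, and without Rat3877 the log2 distance of -3.40 became -4.71. The 5 cores held Mmp9 at 11.5 to 33.2 CPM and the 5 lungs at 13.2 to 61.6, near the pellet. Adamts4, an aggrecanase, was at 3.13 CPM against 17.3 to 28.5 (5.51-fold).

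The hemidesmosome ties keratin filaments to laminin through the plakins Plec and Dst and the integrin Itgb4. Of 10 genes of basal keratins, laminin-332 and hemidesmosome, these 3 lay 4-fold below, 4 below and 2 above at any fold, with a median log2 difference of -1.32; over all compared genes 45.6% lay below at any fold. Plec stood at 163 CPM against 824 to 1062 (5.06-fold), Dst at 71.5 against 448 to 639.9 (6.27-fold) and Itgb4 at 89.9 against 453 to 893 (5.05-fold). Lama5, a laminin chain of basement membrane, stood at 149 CPM against 1472, 1079.7, 1402, 1008 and 1252, 6.75-fold below, and Ahnak, a giant scaffold protein, at 511 against 3058 to 5253 (5.98-fold). All 5 have long transcripts. With the trend over length and GC content removed, the log2 distances were -0.86 for Plec, -0.92 for Dst, -1.58 for Itgb4, -1.65 for Lama5 and -1.46 for Ahnak, each short of 4-fold. Itga1, a collagen-binding integrin, was at 8.34 CPM against 92.2 to 179.7 (11.1-fold) and kept a log2 distance of -2.52.

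Of 15 cytokine receptors compared, 2 lay 4-fold below (1 with TMM scaling), 12 below at any fold and none above, with a median log2 difference of -0.86. Among all compared genes 6.80% lay 4-fold below, 45.6% below at any fold and 32.8% above. Osmr (15:6813577-6874969), the oncostatin M receptor, stood at 3.81 CPM against 95.8, 89.9, 57.1, 85.4 and 78.6, 15.0-fold below. Its signaling partner Il6st was at 85.1 CPM against 116 to 187, below every rim but not by 4-fold. Il1r1, the interleukin-1 receptor, was at 18.8 CPM against 84.6 to 168 (4.51-fold). Jak3, a kinase of cytokine receptors, stood at 19.3 CPM against 571, 422, 326, 473 and 234, 12.1-fold below; its exons overlap those of Insl3.

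Acute-phase and innate defence genes are known targets of such cytokines. Of 7 compared, 3 lay 4-fold below, 4 below at any fold (45.6% of all compared genes did) and 1 above, with a median of -2.29. Without genes with overlapping exons 5 were compared, of which 1 lay 4-fold below and 2 below at any fold. The median was then -0.17, that of all compared genes in the main setting. Lcn2 (2:32384633-32388252), an iron-siderophore carrier, stood at 0.715 CPM against 80.1, 103, 16.0, 39.5 and 7.46. The pellet was 10.4-fold below Rat3877, the lowest rim, and the rims spread as widely for this gene, from 7.46 to 103 CPM. Cp, the copper oxidase ceruloplasmin, stood at 17.8 CPM against 572, 733, 291, 625 and 305, 16.3-fold below. Slpi, a protease inhibitor of mucosa, was at 3.85 CPM against 59.9 to 147 (15.6-fold). Clu, a chaperone counted with complement genes, was at 84.3 CPM against 487 to 1871 (5.78-fold), with a log2 distance of -2.53 that became -3.50 without Rat3877. In the cores Lcn2 stood at 168 to 499.8 CPM and Cp at 815 to 1821.

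Antigen presentation and interferon-stimulated genes lay below the rims with a small number past 4-fold. Of 18 genes of MHC class I presentation, all 18 were below every rim, 2 by 4-fold, and the median log2 difference was -1.47. Among all compared genes 45.6% were below every rim, and 6.80% by 4-fold. Nlrc5, the transcriptional activator of class I genes, was at 6.67 CPM against 58.9 to 89.3 (8.82-fold), and Psmb8, an immunoproteasome subunit, at 13.2 against 60.6 to 94.1 (4.57-fold). The class I heavy chain H2-K1 stood at 253 CPM against 601 to 1036, its partner B2m at 419.7 against 836 to 1187, and the peptide transporter Tap1 at 10.8 against 32.9 to 52.7, none of them 4-fold. With TMM scaling 16 of the 18 were below every rim and 1 was 4-fold below. H2-Ab1, a class II chain of antigen-presenting cells, had 2 reads or 0.0681 CPM in the pellet against 15.4, 10.2, 15.5, 22.6 and 8.21. The ratio of the lowest rim to the pellet was 121, with an exact 95% counting interval of 33.4 to 995. The reads of H2-Ab1 in the rat gland stayed under 10% of its mean rim level. Subtracting predicted rat reads left its log2 distance unchanged at -6.33. The gland libraries hold no tumor, so a rat share of its rim reads was not tested.

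Of 21 interferon-stimulated genes compared, 4 lay 4-fold below, 16 below at any fold and 1, Cxcl10, above, with a median of -1.42. The shares over all compared genes were 6.80% 4-fold below, 45.6% below at any fold and 32.8% above. The 4 were Ifi44 (0.579 CPM against 6.98 to 18.1, 12.1-fold), the 2'-5' oligoadenylate synthetase relative Oasl2 (3.34 against 27.3 to 66.1, 8.17-fold), and the interferon-inducible GTPases Gbp2 (4.73 against 33.2 to 46.0, 7.02-fold) and Igtp (1.50 against 7.17 to 13.3, 4.78-fold). The log2 distance of Igtp was -2.26 and became -2.85 without Rat3875. Isg15, a ubiquitin-like modifier, was at 9.94 CPM and so inside the rim range of 4.98 to 11.6. With TMM scaling 3 genes were 4-fold below, 13 below and 3 above at any fold.

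Of 20 angiogenic factors, 5 lay 4-fold below, 11 below at any fold (45.6% of all compared genes did) and 1 above, with a median log2 difference of -0.86. With TMM scaling 19 were compared, of which 10 lay below and 4 above. Fgf2, a heparin-binding fibroblast growth factor, was at 0.477 CPM against 5.86 in the lowest rim (12.3-fold), and Pdgfc at 6.06 against 40.3 to 121 (6.65-fold). Angpt1, the ligand of the endothelial receptor Tek, was at 1.40 CPM against 7.36 to 15.9 (5.27-fold), with a predicted rat share of 12.6%. Vegfa, the main endothelial growth factor, was at 22.4 CPM against 46.8 to 70.7 and did not reach 4-fold. Of 15 genes of TGF-beta, activin and BMP signaling, 10 lay below every rim and 1 above (median -0.83), and 2 lay 4-fold below: the co-receptor Tgfbr3 (0.341 CPM, 10 reads, against 11.5 to 25.9, 33.7-fold) and the activin subunit Inhbb (1.36 against 22.6 to 83.9, 16.6-fold).

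Several further named genes lay below the rims. Tle2, a Groucho co-repressor, was at 0.953 CPM against 26.7 to 129.7 (28.0-fold), and Moxd1, a monooxygenase-like protein of the endoplasmic reticulum, at 6.64 against 158 to 1198 (23.7-fold). Pros1, the anticoagulant protein S, was at 2.83 CPM against 41.1 to 107 (14.5-fold). Coro6, an actin-binding coronin, was at 3.44 CPM against 68.5 to 208 (19.9-fold), and Rgs11, a regulator of G-protein signaling, at 3.64 against 60.2 to 77.1 (16.5-fold). Egr2, a zinc-finger early response factor, was at 1.12 CPM against 8.59 to 14.8 (7.65-fold).

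**Figure D3:**
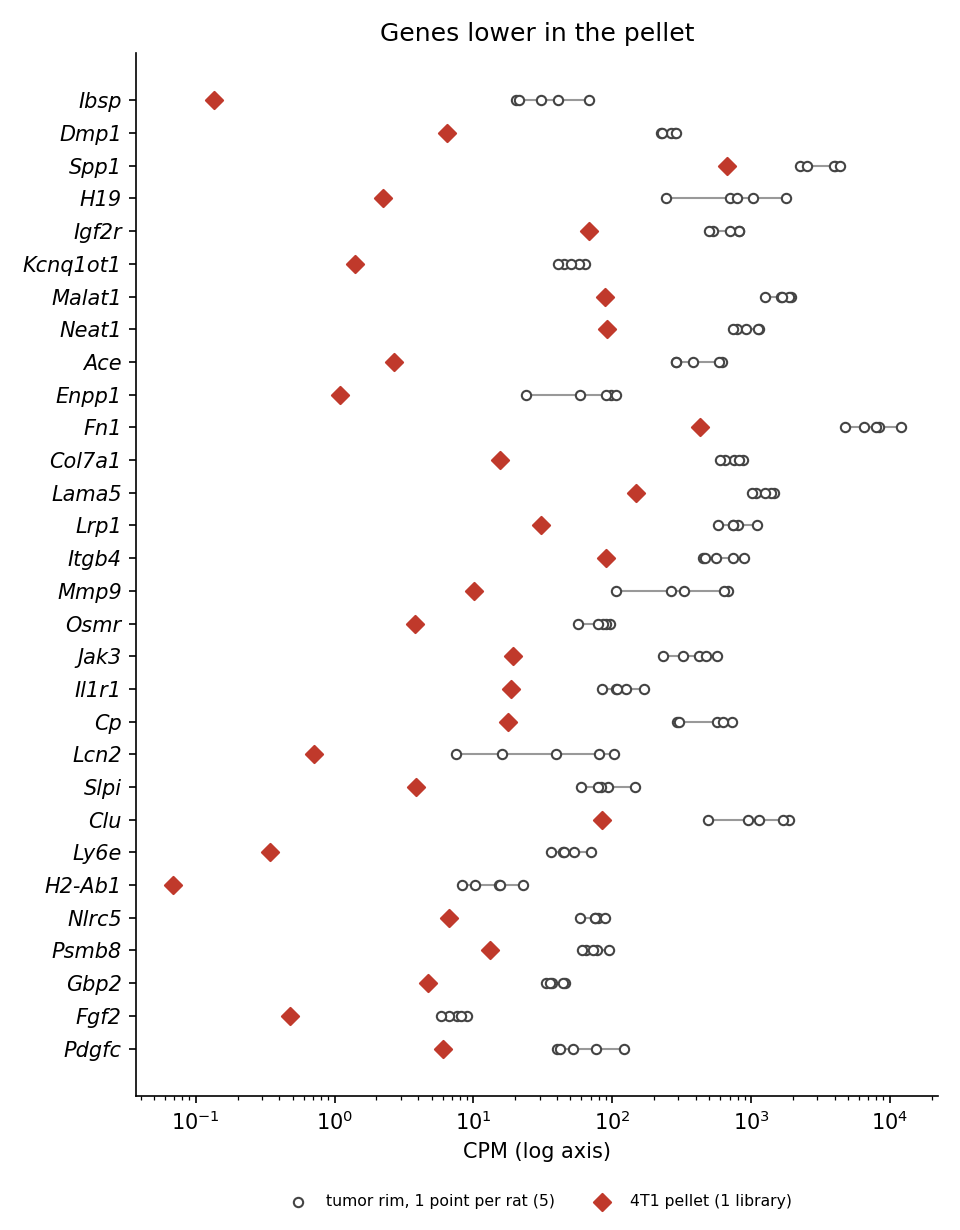
Values of 30 genes low in the pellet, in CPM on a log axis; open circles are the 5 rims and the red diamond is the pellet. The diamond lies to the left of every circle, from 149.7-fold for Ibsp, which had few pellet reads, to 3.37-fold for Spp1, the single gene shown that misses 4-fold.

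Proliferation, translation and respiration genes were higher in the pellet by less than 4-fold. Among all compared genes 32.8% lay above every rim at any fold and 45.6% below. Of 20 genes of G2 and mitosis, 18 lay above every rim and none by 4-fold, with a median log2 difference of 1.01 against -0.17 for all compared genes. Cdc20, an activator of the anaphase-promoting complex, was at 309 CPM against 85.4 to 127, Ccnb1, the mitotic cyclin, at 214 against 80.5 to 115, and the kinase Aurka at 118 against 36.1 to 48.3. The 2 exceptions were Mki67 (229 CPM against 385 to 602) and Cenpf (124 against 165 to 219), both of which lay below every rim. Of 22 DNA replication genes, 18 lay above every rim and none below (median 0.80), among them the helicase subunit Mcm5 (432 CPM against 140 to 203) and the ribonucleotide reductase subunit Rrm2 (326 against 98.3 to 167). All 20 cytosolic ribosomal protein genes lay above every rim (median 0.99), and Rplp0 stood at 4965 CPM against 1601 to 1856. Of 20 nuclear genes of the respiratory chain, 19 lay above and none below (median 1.01). With the trend over length and GC content removed, the median of the ribosomal genes was 0.63 and that of the respiratory genes 0.89.

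Amino acid and redox genes had the same direction. Of 22 genes of the integrated stress and amino acid response, 15 lay above every rim and 1 below, with a median log2 difference of 1.33. The shares over all compared genes were 32.8% above and 45.6% below. Phgdh and Psat1, enzymes of serine synthesis, stood at 570 CPM against 102 to 189 and at 492 against 53.4 to 214. Asns, asparagine synthetase, was at 171 CPM against 24.1 to 100, and the stress factor Atf3 at 42.6 against 2.72 to 20.9. The cystine transporter Slc7a11 was the exception, at 7.12 CPM against 8.21 to 74.4 and below every rim; with TMM scaling none of the list was below and 19 were above. Of 17 Nrf2 targets and metallothioneins, 13 lay above and 3 below (median 0.80): the quinone reductase Nqo1 was at 27.7 CPM against 6.26 to 7.51, while Mt1, Mt2 and the catalase gene Cat lay below every rim.

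Of 19 hypoxia genes, 15 lay below every rim (45.6% of all compared genes did), 1 of them by 4-fold, and 2 above, with a median log2 difference of -0.79; with TMM scaling 10 lay below. P4ha2, a collagen prolyl hydroxylase, was at 7.01 CPM against 35.1 to 50.5 (5.01-fold). Of 16 glycolysis genes, 9 lay below and 5 above, 7 and 7 with TMM scaling, and 5 and 6 with the trend over length and GC content removed. Aldoc, an aldolase, was at 12.4 CPM against 60.8 to 87.3 (4.90-fold), and Hk2, a hexokinase, at 36.9 against 129 to 158. Across all lists 534 genes were compared, of which 5 lay 4-fold above and 45 lay 4-fold below.

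The lists in the next sentences each held at most 1 gene past 4-fold in a direction. Over all compared genes 32.8% lay above every rim at any fold and 45.6% below, and the Wnt counts given here are near those shares. Chaperones of the heat shock response lay mostly above the rims (8 of 14 above, 2 below, median log2 difference 0.44), among them Hspe1, the mitochondrial co-chaperonin, at 359 CPM against 99.3 to 164. Genes of the unfolded protein response lay below in 10 of 17 (median -0.46), with the sensor kinase Ern1 at 28.3 CPM against 80.6 to 119, and lysosomal genes in 14 of 20 (median -0.50). With TMM scaling those 2 lists held 7 and 9 genes below. Of 12 Wnt ligands and modulators, 4 lay above and 6 below (median -0.38): Sfrp1, a secreted Wnt antagonist, was at 34.3 CPM against 5.76 to 10.9, while the ligand Wnt7b was at 91.2 against 338 to 428. Of 20 luminal epithelial genes, 4 lay above and 7 below (median -0.44), and of 12 epithelial-mesenchymal genes, 3 and 5 (-0.35). Medians were 0.01 for Cdk inhibitors and p53 targets (14 genes), 0.11 for cholesterol synthesis (20), 0.03 for cytokines (13), 1.98 for CC chemokines (3), -0.48 for Yap and Srf targets (14), -1.56 for complement (5) and -0.87 for MHC class II (3). The median was -0.14 for fatty acid synthesis (14 genes) and -0.30 for early response genes (27), and some of these medians changed sign. That of fatty acid synthesis was 0.14 with TMM scaling, 0.17 with median-of-ratios factors, 0.03 with upper-quartile scaling and 0.12 with the trend over length and GC content removed, and that of early response genes 0.02 with median-of-ratios factors. The Wnt median was 0.07 after subtraction of predicted rat reads and 0.07 without overlapping genes, the cytokine median -0.27 with the trend removed, and the Yap and Srf median 0.05 without overlapping genes.

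**Figure D4:**
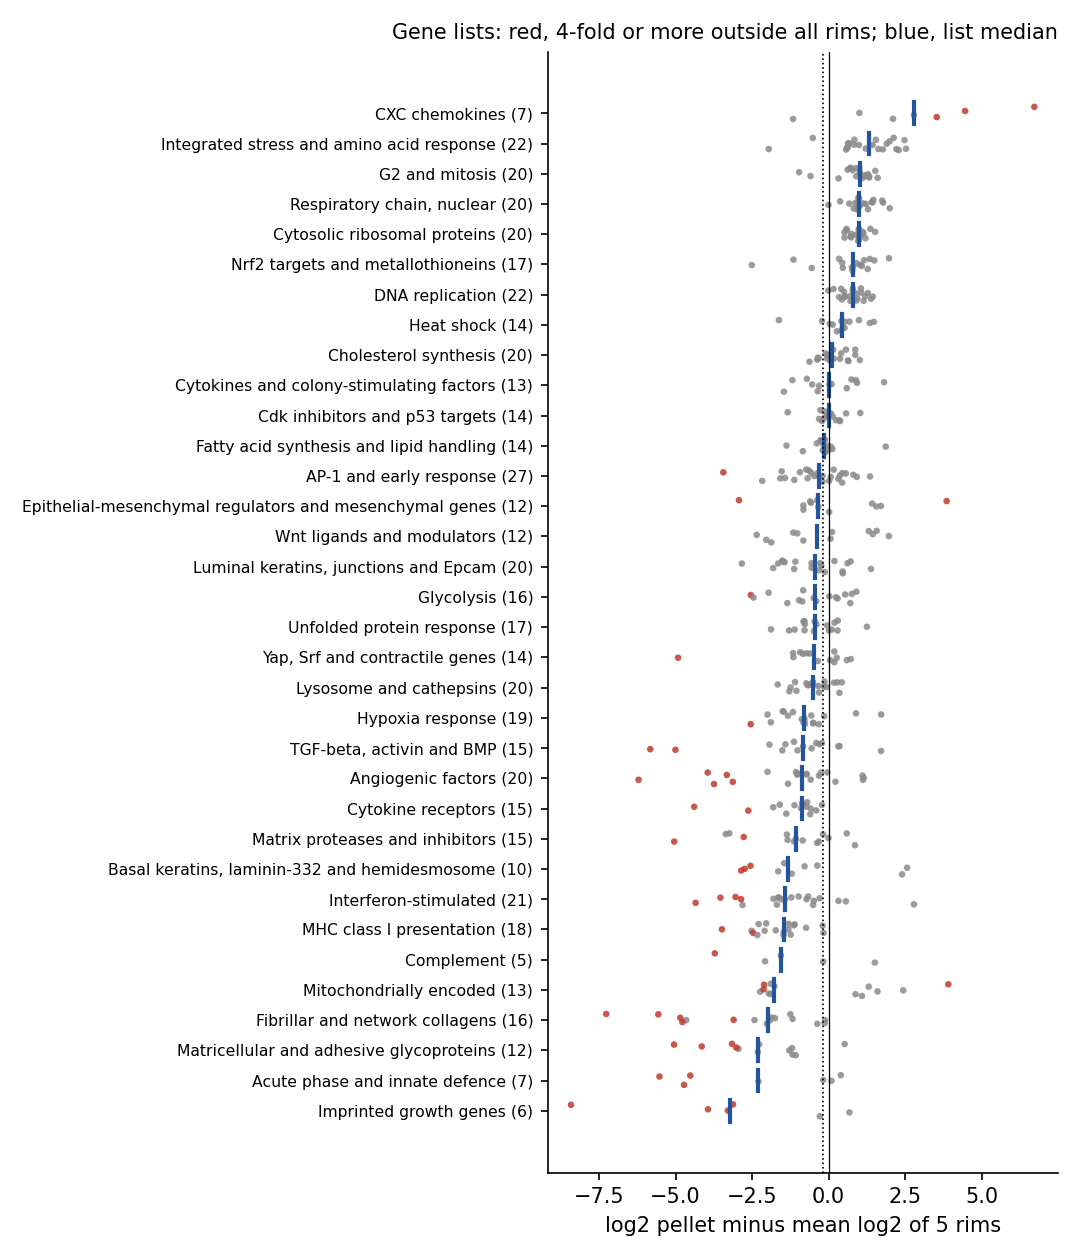
Lists with at least 5 genes compared (number in brackets). Each dot is 1 gene of a list, placed at its log2 pellet value minus the mean log2 of the 5 rims; red dots lie 4-fold or more outside all rims, blue bars are list medians and the dotted line is the median of all compared genes (-0.17). CXC chemokines (median 2.79) sit to the right, and imprinted growth genes (-3.20), acute-phase genes (-2.29) and matricellular genes (-2.29) to the left. The acute-phase median was -0.17 without genes with overlapping exons, and the matricellular median -1.17 after subtraction of predicted rat reads.

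Transcripts of the mitochondrial genome went both ways, less so with the length and GC trend removed. They took 0.571% of mouse reads in the pellet and 1.65% to 1.91% in the rims. Of 13 protein genes, 7 lay below every rim and 6 above, against 45.6% and 32.8% of all compared genes. mt-Co1, a core subunit of cytochrome oxidase, stood at 1589 CPM against 6547, 6382, 6591, 6667 and 8185, 4.02-fold below, and mt-Cytb at 728 against 3242, 3048, 2963, 3587 and 3032, 4.07-fold below. mt-Nd1 stood at 649 CPM against 1918 to 2540.4 and mt-Nd4 at 193 against 741 to 1024, both short of 4-fold. The 6 above were low in all libraries: mt-Atp8, which shares bases with mt-Atp6, was at 8.51 CPM against 0.474 to 0.674 (12.6-fold) and drew gland reads, and mt-Co2 was at 30.0 against 6.46 to 16.5. With TMM scaling mt-Co1 and mt-Cytb kept their side at log2 distances of -1.72 and -1.74, under 4-fold. With the length and GC trend removed 8 of the 13 lay below every rim, 7 of them by 4-fold, and 1 lay above. The list median went from -1.77 to -2.68, and mt-Atp8 had a log2 distance of 1.53, under 4-fold.

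Exonic length moved with the difference over protein-coding genes. In 5 bins of exonic length the median log2 difference went from 0.44 in the shortest (204 to 2593 bases) through 0.06, -0.19 and -0.37 to -0.72 in the longest (7753 to 123179 bases). The share of genes 4-fold below was 3.73% in the shortest and 5.66% in the longest bin, and 28 of the 46 genes above were in the shortest. In 5 bins of GC content the medians went from -0.13 in the lowest to -0.31 in the highest, and the share 4-fold below from 2.56% to 6.47%. The 46 protein-coding genes above had a median of 2083 exonic bases, the 477 below 5079 and all 11130 compared 4564. With the trend over length and GC content removed, 257 genes lay above and 814 below, of which 250 and 716 were among the original 408 and 880. The part of length in the differences was not tested.

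**Figure D5:**
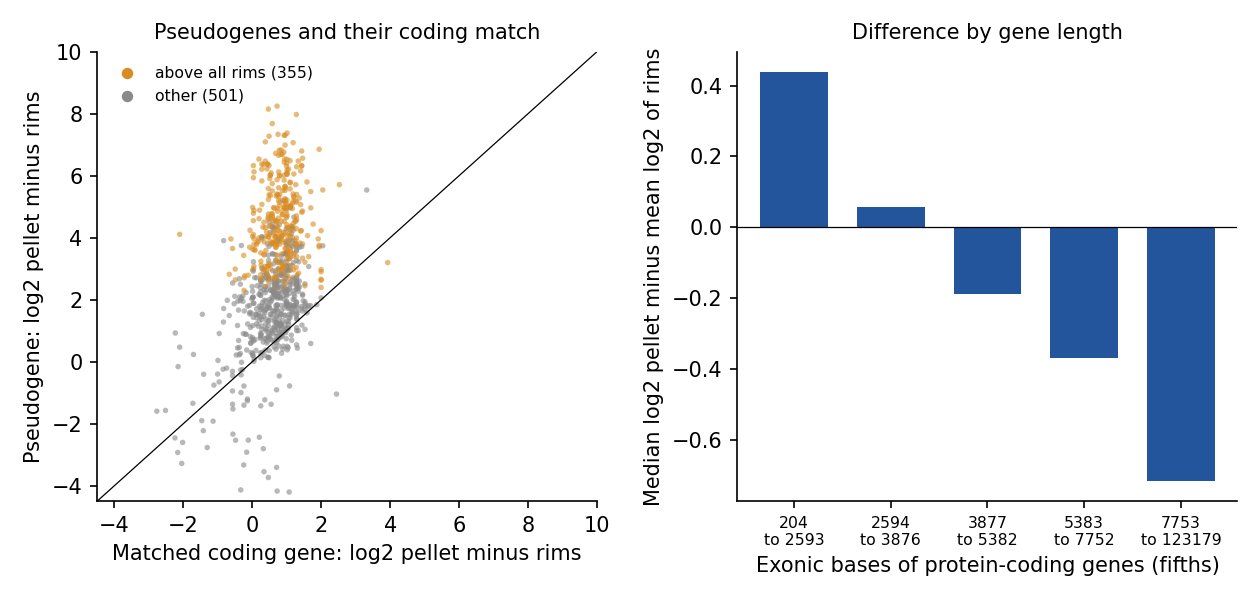
Left, each point is 1 pseudogene, with the log2 difference (pellet minus mean rim) of its matched coding gene on the x axis and its own on the y axis; orange points are the 355 pseudogenes 4-fold or more above all rims. Right, median log2 difference of protein-coding genes in 5 bins of exonic length, from 0.44 in the shortest to -0.72 in the longest.

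Markers of other cell types are given beside the genes below, since mouse reads can come from misassigned host RNA. Fibroblast markers summed to 17.3 CPM in the pellet and 62.6 to 184 in the rims, 9 of the 10 present drew gland reads, and predicted rat reads were 72.3% of the rim reads of Col1a1. Skeletal muscle markers summed to 9.19 CPM against 48.3 to 90.4, and all 9 drew gland reads. Macrophage markers summed to 15.3 CPM against 14.6 to 19.5 and neutrophil markers to 0.953 against 0.125 to 1.42, both inside the rim range. Endothelial markers summed to 0.579 CPM against 2.24 to 4.9, pericyte and smooth muscle markers to 16.2 against 26.5 to 64.2, and erythroid and platelet markers to 1.7 against 3.49 to 6.19. Lymphocyte markers summed to 0.136 CPM against 0.3 to 0.765, adipocyte markers to 1.29 against 0.595 to 1.72 and Schwann markers to 42.4 against 44.8 to 57.6, while none of 7 mast cell markers is in the tumor table. These sums run over the markers present in the tumor table: 10 of 12 for fibroblasts, 9 of 15 for muscle, 7 of 15 for macrophages, 3 of 11 for neutrophils, 5 of 12 for endothelium, 7 of 10 for pericytes, 4 of 9 for erythroid cells, 1 of 10 for lymphocytes, 3 of 10 for adipocytes and 4 of 7 for Schwann cells. Their part in the genes below was not tested. Of the 477 protein-coding genes below, 19 had a predicted rat share of 10% or more and 192 (40.3%) had exons overlapping another gene, against 37.9% of all protein-coding genes compared. Subtracting predicted rat reads left 860 of the 880 genes below. The subtraction only lowers rim values, so it could add no gene below. A prediction was made for 10610 of the 17672 shared genes, those with a rat partner of the same symbol and at least 10 rat reads in the gland. Other genes were left unchanged, so rat reads in them were not tested.

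Around the threshold the values run without a gap. Above the rims, Dnph1 (4.00-fold) and Hs3st1 (4.02-fold) were just inside and Odf3l1 (3.99-fold) and Prl2c2 (3.99-fold) just outside. Below the rims, Jag1 and Cort were just inside at 4.00-fold, and Pnisr (4.00-fold after rounding) and Dmpk (3.99-fold) just outside.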

How the data were processed

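RNA was measured by polyA RNA-seq. The submitters' processing notes name the tools featureCounts, STAR, limma and Trim Galore, and the builds Rnor_6.0 and GRCm38. Not given in the sources used here: versions, the step that assigned reads to a species, strand, and the treatment of reads with several matches. The pellet values are raw read counts as deposited by the authors. The rim values are a normalized signal deposited by the authors, equal to reads with 0.5 added, multiplied by a library constant (100% of values came out whole within 0.01 reads). The recovered reads gave depths and intervals. No pair of rims was alike within sampling noise (lowest chi-square per degree of freedom 25.1). Unmapped columns numbered 0.

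Pellet counts were scaled to CPM over the shared genes, and values under 3 reads were set to the level of 3 reads of that library. Genes of at least 1 CPM in the pellet or in all 5 rims were compared, and a gene counted when the pellet lay 4-fold or more outside all 5 rims. No test was run. Exact Poisson intervals at 95% describe counting error alone, because PCR copies are not independent molecules. The rule was tested on simulated data. Gene classes, lengths and coordinates came from GENCODE M21 (GRCm38), and pseudogenes were matched to coding transcripts with blastn 2.17.0. A mouse gene drew gland reads when its CPM in rat gland exceeded 10% of its mean rim level; predicted rat reads use the gland's mouse-to-rat ratio per gene symbol.

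Named genes were the 12 farthest members in each direction of at least 20 CPM, without predicted, histone and (below) gland-marked genes, up to 4 farthest per list and direction of at least 5 CPM, defining genes near 0 and the 5 most abundant; further genes were chosen after their values were seen, and some named genes are not reported here. Members and the 36 pathway and 11 marker lists were chosen with earlier results of these data known. Alternatives were total-count, TMM (edgeR 4.0.16 in R 4.3.3), median-of-ratios and upper-quartile scaling, pellet scaling over all its genes, no floor, other filters and folds, removal of gland-marked genes, subtraction of predicted rat reads and each rim left out. Removal of a lowess trend on length and GC content, protein-coding genes alone and removal of overlapping genes were added after seeing the data. Python 3.11.15, pandas 2.3.3, numpy 2.4.6, scipy 1.17.1 and statsmodels 0.14.6 were used.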

Additional observations from a re-analysis of the deposited data

Results flagged for a closer look

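Among the 102 members named for the comparison, the 5 rims of 6 genes held 1 value far from the other 4 (gap over range above Dixon's 95% critical value of 0.71 on the log2 scale). Chance alone marks about 1 in 20 such groups. In 3 pseudogenes this was the rim of Rat3869, higher than the rest: Rpl31-ps11 at 0.808 CPM against 0.119 to 0.142, Rpl28-ps3 at 2.24 against 0.474 to 0.674, and Eef1a1-ps1 at 11.8 against 5.76 to 6.26. The rim of Rat3877 held mt-Co1 at 8185 CPM against 6382 to 6667. The rim of Rat3867 held Nav1, a neuron navigator, at 471 CPM against 291 to 334, and Cyp1b1 at 0.0748 CPM, the level of 1 read, against 1.12 to 2.61. These flags used values without the floor of 3 reads. The other 4 rims of Rpl31-ps11 and the flagged rim of Cyp1b1 were under 3 reads. Both flags therefore rest on very few reads.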

How the results depend on the processing

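The 102 named members were chosen as 4-fold or more outside all rims. Changing the filter, leaving out a rim or dropping gland-marked or overlapping genes therefore cannot move a member to the other side. Of the 102 named members, none of those that an alternative could compare (66 to 102, fewest without overlapping genes) lay on the other side of the rims, though Tnc lay inside them after subtraction of predicted rat reads. Under 4-fold were 7 with TMM scaling (mt-Cytb, mt-Co1, Igtp, Psmb8, Il1r1, Tnc and Ly6a), 8 with median-of-ratios factors, 5 with upper-quartile scaling, 1 with the pellet scaled over all its genes (Dnph1), 1 over protein-coding genes alone (mt-Cytb), 15 with the length and GC trend removed and 3 after that subtraction (Tnc, Col6a2 and Angpt1; Col5a2 could not be compared). The cause of these moves was not tested. Counts moved by over 1.5 times as follows. Genes above (408) numbered 227 at 10 CPM or more, 962 at 2-fold, 221 at 8-fold, 82 without gland-marked genes, 257 with the trend removed and 48 over protein-coding genes alone. Protein-coding genes above (46) numbered 71 with median-of-ratios factors, 26 at 10 CPM, 398 at 2-fold, 20 at 8-fold and 24 without gland-marked genes. Genes below (880) numbered 1393 without a filter, 250 at 10 CPM, 2087 at 2-fold, 434 at 8-fold, 472 over protein-coding genes alone and 521 without overlapping genes. Protein-coding genes below (477) numbered 220, 1513 and 174 at 10 CPM, 2-fold and 8-fold, and 285 without overlapping genes. List members above (5) numbered 9 with TMM, 9 with median-of-ratios factors, 2 without gland-marked genes, 9 after rat-read subtraction and 43 at 2-fold. List members below (45) numbered 27 at 10 CPM, 102 at 2-fold, 23 at 8-fold and 24 without overlapping genes. Leaving out each rim gave 410 to 583 genes above (48 to 61 protein-coding), 918 to 1049 below (496 to 609 protein-coding), 5 to 10 list members above and 48 to 54 below. Counts without a rim cannot fall, because the pellet then has fewer rims to lie outside of. No paired analysis was possible because the pellet shares no replicate number with the rims and no test was run. With 1 pellet library, neither its own spread nor any batch can be seen, and rim levels under about 3 reads set only bounds.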
